A study of Mus musculus with 6 samples.

Results

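A set of 10 genes of sarcoplasmic reticulum calcium handling was examined in left ventricles of adult mice that had been exposed to caffeine in utero. They are Ryr2, Atp2a2, Pln, Sln, Casq2, Hrc, Trdn, Asph, Jph2 and Slc8a1, and they were found in the files by their symbols. All 10 were found among the 43629 genes counted. CD-1 dams received 20 mg/kg caffeine or vehicle (normal saline) by a daily intraperitoneal injection from E6.5 to E9.5, although 1 field of the labels ends the exposure at E10.5. RNA was taken from male offspring at 1 year of age, 3 hearts from the caffeine group and 3 from the vehicle group, with no genetic modification named in the labels of either. The exposure reached the embryos through the dam, and the sources used here do not tie the sequenced hearts to litters. The p-values therefore take as independent samples hearts that may share a dam. The libraries held between 7613011 and 10483101 counts, and each caffeine library was smaller than each vehicle library.

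In a cardiac muscle cell, each beat begins when calcium entering from outside opens the ryanodine receptor, Ryr2, in the membrane of the sarcoplasmic reticulum, and the calcium stored there is released onto the myofilaments. The muscle relaxes when the pump SERCA2, encoded by Atp2a2, returns calcium to the store and the sodium-calcium exchanger, encoded by Slc8a1, carries the rest out of the cell. Small membrane peptides such as phospholamban and sarcolipin slow the pump, and Casq2 and Hrc hold calcium inside the store. Triadin, junctin and junctophilin tie the release channel to its store proteins and to the surface membrane. Caffeine at high concentration opens ryanodine receptors directly, but these hearts were exposed as embryos and sampled long afterwards.

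None of the genes passed the thresholds for differential expression, an adjusted p below 0.05 and a fold change above 1.5. Of the 10 genes, 9 had enough counts to be tested and Sln did not. With edgeR's quasi-likelihood fit 0 of the 9 passed, while 0.107% of all 13092 tested genes did (0.084% higher and 0.0229% lower in caffeine), and 0 of the 9 had an unadjusted p below 0.05, against 8.82% of all genes. The count was also 0 by edgeR's exact and likelihood ratio tests, by DESeq2 and by limma-voom. Without vehicle replicate 3, 3 of the 9 had an unadjusted p below 0.05, and without caffeine replicate 3, 1 did. None of these passed after adjustment, and the share of all genes at that p was not taken in these fits. The fitted log2 fold changes (caffeine over vehicle) lay between −0.25 for Ryr2 and −0.03 for Casq2, with a median of −0.08, compared to 0.00088 over all genes. All 9 were below 0, as were 49.8% of all genes, and in all 9 the hearts of the groups overlapped, as they did for all but 14.2% of genes. The 95% interval of the fold change, each gene taken singly, lay within 1.5-fold in either direction for 9 of 9 genes and for 63% of all genes. The genes are abundant, and their standard errors had a median of 0.09 on the log2 scale compared to 0.15 over all genes.

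**Figure D1:**
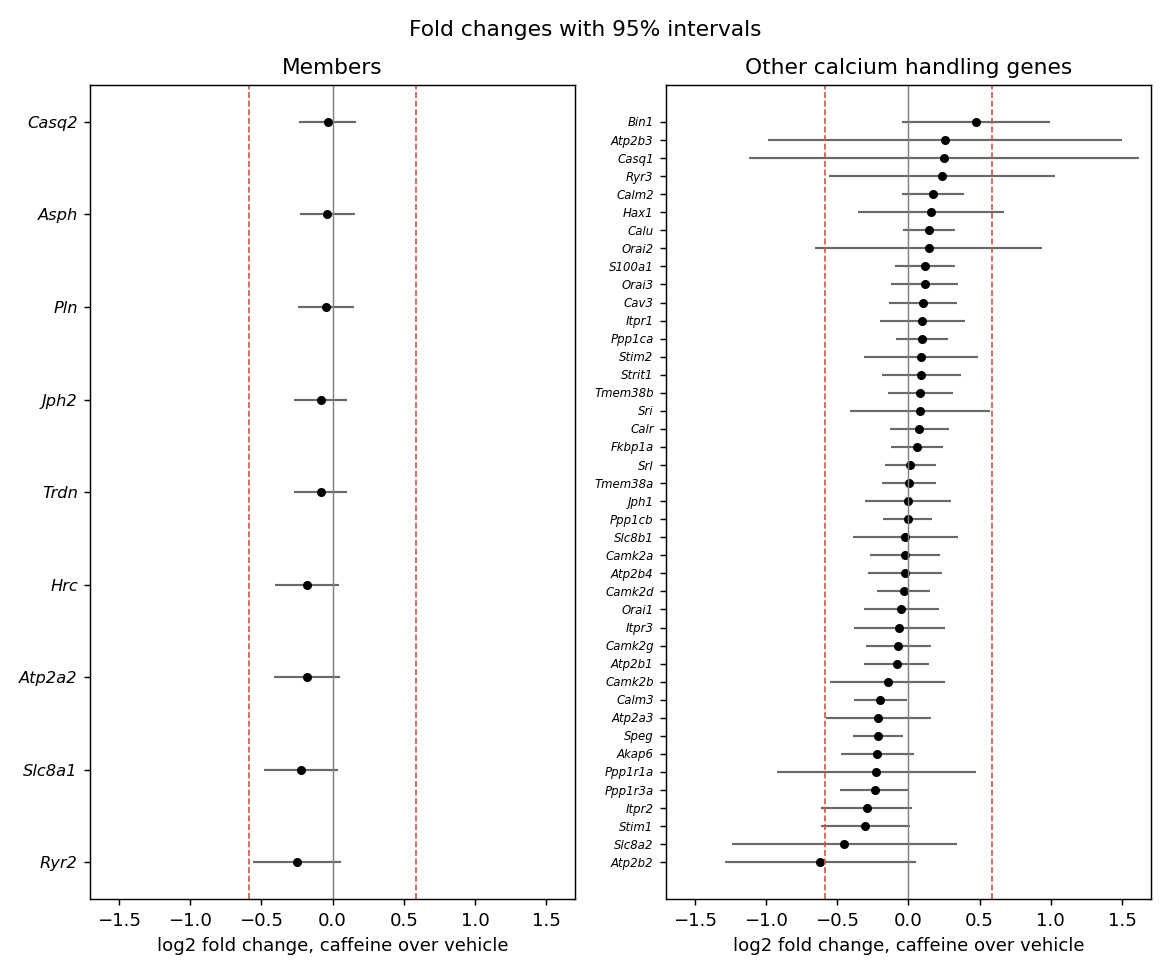
Log2 fold change of caffeine over vehicle (horizontal axis) for the 9 tested genes (left) and for other tested calcium handling genes (right; 1 is not drawn), with points for the fitted value, bars for the 95% interval and dashed lines at a 1.5-fold change. The bars of the 9 genes lie between the dashed lines, with Ryr2 reaching farthest, to −0.56.

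**Figure D2:**
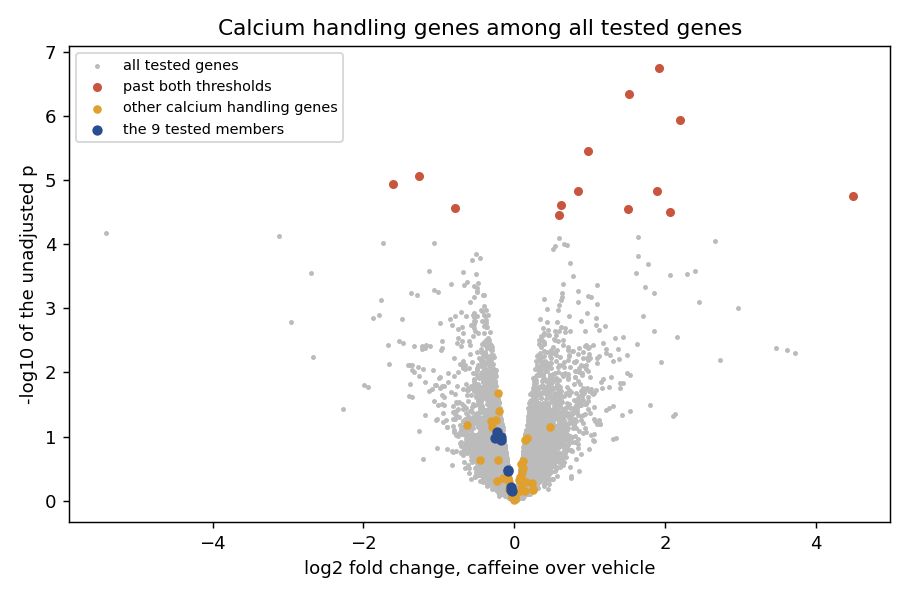
Log2 fold change against −log10 of the unadjusted p for the 13092 tested genes. The 9 calcium handling genes sit near the base of the plot, and the 14 genes past both thresholds sit above them.

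The levels of the genes within the ventricle spanned several orders of magnitude and were in the same order in both groups. To compare genes, CPM values (the usual counts scaled to a fixed library size, here with TMM factors) were divided by the kilobases of exon of each gene. On that scale Pln was highest, at 2630 ± 47.8 CPM per kb in vehicle (SD, n = 3) and 2548 ± 137 CPM per kb in caffeine (SD, n = 3). Atp2a2 followed at 2180 ± 246 and 1923 ± 18.6 CPM per kb, with SD and n given in the same way from here on. The store proteins came next, Hrc at 466 ± 49.8 and 411 ± 32.5 and Casq2 at 410 ± 11.6 and 400 ± 37.3 CPM per kb. Jph2 had 221 ± 13.4 and 208 ± 9.90 CPM per kb. Ryr2 had 72.0 ± 13.8 and 60.6 ± 7.06 and Trdn 43.1 ± 2.52 and 40.6 ± 1.91 CPM per kb. Asph had 17.7 ± 1.29 and 17.2 ± 0.903 and Slc8a1 13.0 ± 1.93 and 11.1 ± 1.04 CPM per kb. Neighbours in this order did not overlap between hearts of a group, except Hrc and Casq2 in the caffeine group. The order was also the same when CPM was divided by the longest annotated transcript. Exons that the heart does not use lower the values of genes with many isoforms, such as Ryr2, with 28.8 kb of exon but a longest transcript of 16814 bases.

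**Figure D3:**
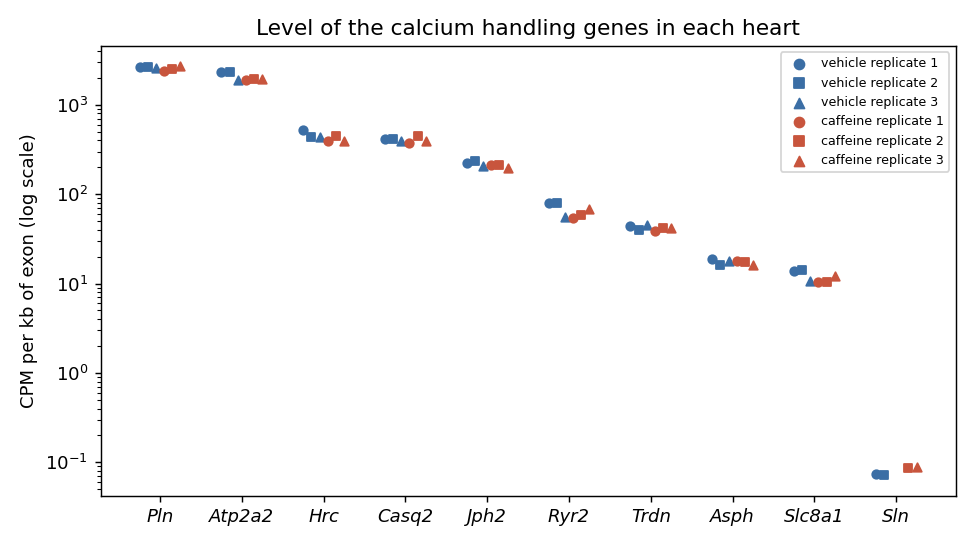
Level of each gene in each heart in CPM per kb of exon, on a log scale, with vehicle hearts in blue and caffeine hearts in red. The genes differ far more from each other than the groups do, and Sln, which had no count in 2 hearts (not drawn), is the lowest.

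The release channel Ryr2 (ENSMUSG00000021313, GRCm38 chromosome 13, 11553102 to 12106945, minus strand) had the largest fitted fold change of the set. It measured 2317, 2286 and 1612 CPM in vehicle replicates 1 to 3 and 1572, 1691 and 1968 CPM in caffeine replicates 1 to 3. Vehicle replicates 1 and 2 were the highest hearts, while vehicle replicate 3 fell among the caffeine hearts. The log2 fold change was −0.25 (standard error 0.14, edgeR adjusted p = 0.66), with a 95% interval of fold changes from 0.679 to 1.04.

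The exporter Slc8a1 (ENSMUSG00000054640, chromosome 17, 81373105 to 81738377, minus strand) encodes NCX1, the main route of calcium out of the cardiac cell. It measured 263, 266 and 202 CPM in vehicle and 197, 198 and 231 CPM in caffeine. The same 2 vehicle hearts were again the highest, and vehicle replicate 3 lay among the caffeine hearts. The log2 fold change was −0.22 (standard error 0.12, edgeR adjusted p = 0.64), with a 95% interval of fold changes from 0.716 to 1.03.

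Slc8a1 was also among the genes most like Ryr2 in pattern. Likeness was measured as the root mean square difference between log2 CPM values centred on the mean of each gene over the 6 hearts. Of 13091 other tested genes the 3 nearest to Ryr2 were Ppfibp2 (0.025), Slc8a1 (0.054) and Spsb1 (0.062), and in all 3 the groups overlapped. Whether Ryr2 and Slc8a1 share regulation was not tested, and the nearer Ppfibp2, which is not in the set, is not shown. For Ryr2 and Slc8a1 the 250 bases before each RefSeq start are shown, 5′ to 3′ on the strand of the gene. Matches to the E-box CANNTG are in capitals. The Ryr2 window lies at chr13:12106946-12107195 and the Slc8a1 window at chr17:81738388-81738637, both on the minus strand of GRCm38.p6.
Ryr2: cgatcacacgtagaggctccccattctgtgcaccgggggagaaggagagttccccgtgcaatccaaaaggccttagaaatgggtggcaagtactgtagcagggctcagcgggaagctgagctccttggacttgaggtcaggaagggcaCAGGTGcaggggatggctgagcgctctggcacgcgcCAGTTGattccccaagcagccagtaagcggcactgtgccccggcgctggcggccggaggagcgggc
Slc8a1: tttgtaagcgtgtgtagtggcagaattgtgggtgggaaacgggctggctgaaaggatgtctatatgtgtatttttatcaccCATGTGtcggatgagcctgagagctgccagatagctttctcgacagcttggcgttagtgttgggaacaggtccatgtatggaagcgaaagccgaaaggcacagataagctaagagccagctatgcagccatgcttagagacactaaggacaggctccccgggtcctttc
The Ryr2 window held 2 E-boxes and the Slc8a1 window 1, and 66.2% of the 32851 promoters of the same length in the RefSeq table hold at least 1. The GC content was 63.2% for Ryr2 and 50.4% for Slc8a1, compared to a median of 52.4%. The Slc8a1 window also held 1 AGATAA and 1 TGATAA, letters bound by GATA factors, read on either strand and found in 9.99% and 7.94% of promoters, and the Ryr2 window held neither. Neither window held the GC box GGGCGG (32.7% of promoters), the TEAD element CATTCC (12.6%) or TATAAA (12.4%), nor a match to the CArG box (1.47%) or the MEF2 motif (2.92%).

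Ryr2 and Slc8a1 also have the longest transcripts of the set, 16814 and 18464 bases. Among the 310 tested genes with a longest transcript over 10 kb the median log2 fold change was −0.08, and 67.7% were below 0. The median deviation of these genes from their mean over the hearts was −0.045, 0.11 and 0.046 in vehicle replicates 1 to 3 and −0.14, 0.041 and −0.021 in caffeine replicates 1 to 3 on the log2 scale. In the same order Ryr2 deviated by 0.30, 0.28 and −0.22 in vehicle and −0.26, −0.16 and 0.063 in caffeine. Slc8a1 deviated by 0.23, 0.25 and −0.15 in vehicle and −0.19, −0.18 and 0.045 in caffeine. Of genes with shorter longest transcripts, 38.6% had a log2 fold change below 0 up to 2 kb. The share was 49.0% from 2 to 5 kb and 63.3% from 5 to 10 kb. The part of transcript length in the values of Ryr2 and Slc8a1 was not tested.

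**Figure D4:**
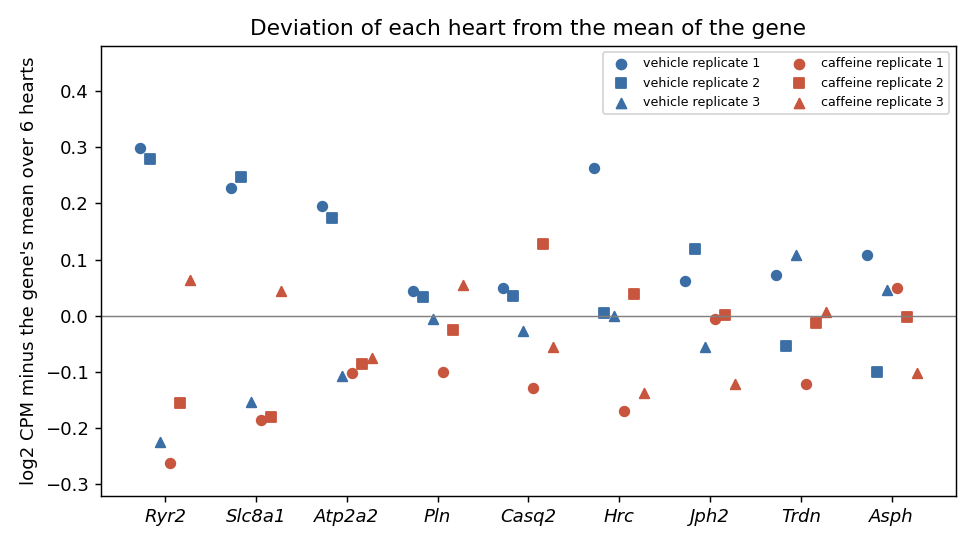
Log2 CPM of each heart minus the mean of the gene over the 6 hearts (vertical axis) for the 9 tested genes. Vehicle replicates 1 and 2 lie above the other 4 hearts for Ryr2, Slc8a1 and Atp2a2, and no gene separates the blue vehicle hearts from the red caffeine hearts.

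The pump gene Atp2a2 (ENSMUSG00000029467, chromosome 5, 122453513 to 122502225, minus strand) measured 14229, 14009 and 11539.6 CPM in vehicle and 11575, 11706 and 11800.2 CPM in caffeine. The caffeine hearts were close to each other and to vehicle replicate 3, below vehicle replicates 1 and 2. The log2 fold change was −0.18 (standard error 0.11, edgeR adjusted p = 0.67), with a 95% interval of fold changes from 0.751 to 1.04. Without vehicle replicate 3 the log2 fold changes of Atp2a2, Ryr2 and Slc8a1 were −0.27, −0.40 and −0.34, with edgeR adjusted p = 0.42, 0.30 and 0.37. Without vehicle replicate 1, the value of Ryr2 was −0.16.

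The pump inhibitor Pln (ENSMUSG00000038583, chromosome 10, 53337667 to 53345987, plus strand) encodes phospholamban, which slows SERCA2 until it is phosphorylated. It measured 7361, 7302 and 7108 CPM in vehicle and 6661, 7014 and 7419 CPM in caffeine. The lowest and the highest hearts were both caffeine-treated, and the fold change had a 95% interval from 0.846 to 1.11 (log2 −0.05, standard error 0.089, edgeR adjusted p = 0.93). The log2 fold change of Pln was −0.0084 without caffeine replicate 1 and −0.084 without caffeine replicate 3. The annotation places exons of Cep85l, a gene at 6.35 to 9.02 CPM, over 5.11% of the exon bases of Pln on the opposite strand, and those of Gm47644, which is not among the genes counted, over 59.6%.

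Sarcolipin, encoded by Sln (ENSMUSG00000042045, chromosome 9, 53850164 to 53854560, plus strand), is the corresponding pump inhibitor of the atria and of skeletal muscle. Its counts were 1, 1 and 0 in vehicle and 0, 1 and 1 in caffeine, so Sln was at background in every ventricle and no fold change is given. A count of 0 allows up to 3 counts, which was between 0.284 and 0.42 CPM in these libraries. Pln had between 47584 and 77163 counts in the same hearts.

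The luminal protein Casq2 (ENSMUSG00000027861, chromosome 3, 102086415 to 102146514, plus strand) encodes cardiac calsequestrin, the main calcium buffer of the store. It measured 1146, 1135 and 1086 CPM in vehicle and 1012, 1209.5 and 1065 CPM in caffeine. The caffeine hearts lay on either side of the vehicle hearts, and the log2 fold change was −0.03 (standard error 0.090, edgeR adjusted p = 0.95). Its 95% interval of fold changes ran from 0.850 to 1.12. The log2 fold change of Casq2 moved to 0.019 without caffeine replicate 1 and to −0.11 without caffeine replicate 2.

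Hrc (ENSMUSG00000038239, chromosome 7, 45335290 to 45338974, plus strand) encodes the histidine-rich calcium binding protein, which binds both SERCA2 and triadin. It measured 1344, 1125 and 1119.7 CPM in vehicle and 997, 1151 and 1019 CPM in caffeine. Vehicle replicate 1 was the highest heart, and caffeine replicate 2 lay above the other 2 vehicle hearts. The log2 fold change was −0.18 (standard error 0.10, edgeR adjusted p = 0.66), with a 95% interval of fold changes from 0.757 to 1.03. Without vehicle replicate 1 the log2 fold change of Hrc was −0.088.

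Of the junctional proteins, Trdn (ENSMUSG00000019787, chromosome 10, 33080554 to 33476709, plus strand) encodes triadin, which anchors calsequestrin to the release channel. It measured 411, 376 and 421 CPM in vehicle and 359, 387 and 393 CPM in caffeine. Vehicle replicate 2 lay among the caffeine hearts, and the log2 fold change was −0.08 (standard error 0.084, edgeR adjusted p = 0.84).

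Jph2 (ENSMUSG00000017817, chromosome 2, 163336242 to 163397993, minus strand) encodes junctophilin 2, which holds the store close to the surface membrane. It measured 950.1, 989 and 876 CPM in vehicle and 907, 912 and 837 CPM in caffeine. The groups overlapped, and the log2 fold change was −0.08 (standard error 0.085, edgeR adjusted p = 0.84).

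Asph (ENSMUSG00000028207, chromosome 4, 9448069 to 9669344, minus strand) encodes junctin and, from the same gene, the enzyme aspartate beta-hydroxylase. Counts per gene add these products together, and the annotation lists 15 protein-coding transcripts. Asph measured 303, 262 and 289.9 CPM in vehicle and 291, 281 and 262 CPM in caffeine. The groups covered nearly the same range, and the log2 fold change was −0.04 (standard error 0.088, edgeR adjusted p = 0.95). Of the exon bases of Asph, 14.3% overlap exons of Clvs1 on the opposite strand, which was at 0 to 0.473 CPM. For Trdn, Jph2 and Asph the 95% intervals of fold changes ran from 0.829 to 1.07, from 0.828 to 1.07 and from 0.852 to 1.11. With 1 heart left out, the log2 fold change of Trdn ran from −0.13 (without vehicle replicate 2) to −0.047 (without caffeine replicate 1), that of Jph2 from −0.13 (without vehicle replicate 3) to −0.043 (without caffeine replicate 3) and that of Asph from −0.095 (without vehicle replicate 2) to 0.0083 (without vehicle replicate 1).

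The balance between the genes was compared within each heart, where a ratio of counts does not depend on how the libraries are scaled. The counts were not divided by gene length. The size of a ratio is therefore not the ratio of transcript levels, and only its difference between groups is read. Per kb of exon, Pln was above Atp2a2 in both groups. The ratio of the pump to its inhibitor, Atp2a2 to Pln, was 1.93, 1.92 and 1.62 in vehicle and 1.74, 1.67 and 1.59 in caffeine. The lowest vehicle heart lay among the caffeine hearts, and the mean log2 ratio was 0.74 in caffeine and 0.86 in vehicle, a difference of −0.13 (two-sided exact permutation test, p = 0.3). Slc8a1 to Atp2a2, the export route against reuptake, was 0.0185, 0.0190 and 0.0175 in vehicle and 0.0170, 0.0169 and 0.0196 in caffeine, a difference of −0.04 on the log2 scale (exact permutation p = 0.7).

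The store and junction proteins were set against the release channel in the same way. Casq2 to Ryr2 was 0.495, 0.497 and 0.674 in vehicle and 0.644, 0.715 and 0.541 in caffeine, a log2 difference of 0.20 (exact permutation p = 0.3). The log2 differences were 0.15 for Trdn to Ryr2 (exact permutation p = 0.6) and 0.15 for Jph2 to Ryr2 (exact permutation p = 0.5). In all 5 ratios the groups overlapped, and every p was 0.7 after adjustment over the 6 pairs compared, of which Sln to Pln is not given because Sln had too few counts. With 3 hearts against 3 the smallest p this test can give is 0.1. The ratios moved with single hearts. With 1 heart left out, the difference ran from 0.11 (without caffeine replicate 2) to 0.34 (without vehicle replicate 3) for Casq2 to Ryr2, from 0.023 (without vehicle replicate 2) to 0.36 (without vehicle replicate 3) for Trdn to Ryr2 and from 0.062 (without caffeine replicate 1) to 0.28 (without caffeine replicate 3) for Jph2 to Ryr2. It ran from −0.21 (without vehicle replicate 3) to −0.084 (without vehicle replicate 1) for Atp2a2 to Pln and from −0.11 (without caffeine replicate 3) to −0.0026 (without caffeine replicate 2) for Slc8a1 to Atp2a2.

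**Figure D5:**
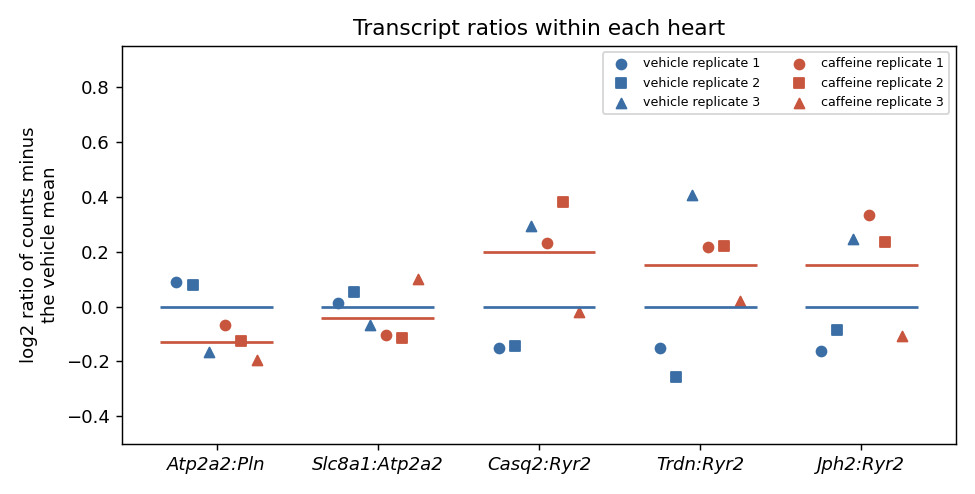
Log2 ratio of counts of gene pairs within each heart minus the vehicle mean of that pair, with horizontal lines for the group means. Vehicle replicate 3 lies apart from the other 2 vehicle hearts in the 3 ratios to Ryr2, and caffeine replicate 3 lies nearest to those 2 hearts.

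Beyond these genes, 51 other genes of the pathway were listed by role and 43 of them were tested. In the same fit none passed both thresholds, nor did any by edgeR's exact and likelihood ratio tests, DESeq2 or limma-voom. The log2 fold changes ran from −0.62 to 0.47 with a median of 0.0052, 22 above 0 and 21 below. In 1 gene all caffeine hearts lay above all vehicle hearts (7.11% of all genes) and in 3 below (7.12%), and 2 had an unadjusted p below 0.05 (8.82%). With no filter on low counts this number was 10 and with library size only 7, where the share of all genes was not taken.

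Those 2 were Speg and Calm3. Speg, a kinase of the junctional membrane, measured 215, 222 and 209.6 CPM in vehicle and 187, 193 and 179 CPM in caffeine. All 3 caffeine hearts lay below all 3 vehicle hearts (log2 fold change −0.21, standard error 0.079, edgeR adjusted p = 0.44). Calm3, a calmodulin gene, measured 264, 298 and 270.4 CPM in vehicle and 244, 231 and 250.5 CPM in caffeine, also without overlap (log2 fold change −0.20, standard error 0.084, edgeR adjusted p = 0.55).

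The next smallest p-values were those of Ppp1r3a, Stim1 and Atp2b2, in each of which the groups overlapped. Ppp1r3a, a targeting subunit of protein phosphatase 1, had a log2 fold change of −0.24 (edgeR adjusted p = 0.58). Stim1, the calcium sensor of the store, had −0.30 (edgeR adjusted p = 0.59). Atp2b2, a calcium pump of the surface membrane at 5.04 to 16.6 CPM, had −0.62 (edgeR adjusted p = 0.61), and it passed the thresholds when genes with low counts were kept in the fit (−0.64, edgeR adjusted p = 0.040). In that fit 240 of all 22407 tested genes passed. The value of Atp2b2 was −0.23 without vehicle replicate 1, the highest heart, and −0.40 without caffeine replicate 3. That of Ppp1r3a was −0.13 without caffeine replicate 1, and that of Stim1 −0.17 without vehicle replicate 2.

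By role, and with genes named from here on chosen after their values were seen, no gene passed in either direction. Of 5 other release channels 4 were tested, and the skeletal muscle channel Ryr1 was below the filter at 8 to 17 counts. Among 12 regulators of the release channel, 11 were tested and 6 had a log2 fold change below 0. The channel-binding immunophilin Fkbp1a was at 150 to 167 CPM while its relative Fkbp1b was below the filter at 4 to 8 counts. Of the pump regulators 6 of 7 were tested, and Strit1, which encodes the activating peptide DWORF, measured 104, 85.9 and 86.5 CPM in vehicle and 115, 83.4 and 96.4 CPM in caffeine. Of 2 other pumps 1 was tested, Atp2a3, at a log2 fold change of −0.21 (edgeR adjusted p = 0.78). All 4 other luminal proteins had a log2 fold change above 0, while 49.8% of all genes were below 0. Of these, Srl was at 0.014 and Casq1 at 0.25 with a standard error of 0.62. Calu, a calcium-binding protein of the lumen, was higher in all 3 caffeine hearts (log2 fold change 0.14, edgeR adjusted p = 0.67), as were 7.11% of all genes. Of 9 other junction proteins 6 were tested, with 4 values above 0, of 7 other exporters 6, with 1 above 0, and all 5 genes of store-operated entry, with 3 above 0.

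The tissue was checked against marker genes. All 8 ventricular cardiomyocyte markers were abundant, with a summed level of 61428 to 70741 CPM in vehicle and 59538 to 64586 CPM in caffeine. The single markers did not move together. In Ttn all caffeine hearts lay below all vehicle hearts (log2 fold change −0.37, edgeR adjusted p = 0.30), as in 7.12% of all genes. In Actc1 all lay above (0.15, edgeR adjusted p = 0.68), as in 7.11% of all genes, and in the others the groups overlapped. Of the atrial list Myl7 and Bmp10 were at or under 0.352 CPM in every heart, as Sln was. The sum of that list of 8 was 165 to 293 CPM in vehicle and 357 to 524 CPM in caffeine, of which Nppa, which the stressed ventricle also expresses, made up 51.3 to 180.2 and 266 to 433 CPM. The other 7 genes of the atrial list together, summed after these values were seen, went the opposite way, at 113 to 123 CPM in vehicle and 91.1 to 91.5 CPM in caffeine. Of these 7, 5 were tested, and in 3 all caffeine hearts lay below all vehicle hearts, as in 7.12% of all genes. The 3 were Stard10, Kcnj3 and Tbx5 (log2 fold changes −0.37, −0.28 and −0.53, edgeR adjusted p = 0.37, 0.37 and 0.19). In Myl4 (log2 fold change −0.26) and Dkk3 (0.20) the groups overlapped. The untested Myl7 and Bmp10 had higher means in caffeine (0.162 and 0.117 CPM) than in vehicle (0.065 and 0.033 CPM). The 8 skeletal muscle markers summed to 1.32 to 2.33 CPM in vehicle and 0.14 to 0.564 CPM in caffeine, and Myh1 and Myh4 were at 0 in every heart.

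The 5 fibroblast markers summed to 676 to 779 CPM in vehicle and 823 to 967 CPM in caffeine. Of these sums Dcn made up 505 to 581 and 608 to 767 CPM, and in Col1a1, Col1a2, Pdgfra and Tcf21 the groups overlapped. The sums of 4 endothelial markers (518 to 594 and 528 to 569 CPM), 3 smooth muscle markers (75.5 to 115 and 65.1 to 77.6 CPM), 4 macrophage markers (70.1 to 109 and 88.5 to 165 CPM) and 4 erythroid markers (686 to 1286 and 746 to 1574 CPM) overlapped. Within the macrophage list, all caffeine hearts lay above all vehicle hearts in Adgre1 and Csf1r, as in 7.11% of all genes. Their log2 fold changes were 0.93 and 0.34 (edgeR adjusted p = 0.23 and 0.61). In Cd68 and C1qa the groups overlapped. The 3 adipocyte markers were at 0.507 to 1.86 and 0.113 to 0.469 CPM. The atrial, skeletal muscle, fibroblast and adipocyte sums did not overlap between the groups, at the smallest p the two-sided exact permutation test can give, 0.1. No marker of the skeletal muscle and adipocyte lists had enough counts to be tested, so those 2 sums rest on few counts. In whole ventricle, fewer muscle cells and less RNA of these genes per muscle cell cannot be told apart, and the part of the fibroblast sum in the values of the 9 genes was not tested. Before any scaling by TMM the 9 tested genes together took 2.60 to 2.89% of the counts in vehicle and 2.21 to 2.51% in caffeine, without overlap. The share of all genes without overlap was not taken on that basis, and with library size only their median log2 fold change was −0.084. Most of these counts came from Atp2a2 and Pln, with 145645 and 75341 of 289910 in vehicle replicate 1. After scaling the sum of all 10 genes was 24256 to 28323 CPM in vehicle and 23572 to 24994 CPM in caffeine, and the groups overlapped.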

How the data were processed

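RNA-seq was performed on poly(A) RNA of 6 left ventricles, 3 per treatment. The authors ran FastQC, mapped reads to mm10 (GRCm38) with Tophat2 and counted them with HTSeq (Ensembl release 79). The files hold the raw counts as deposited, and the strand setting is not given in the sources used here. Genes were filtered with filterByExpr (minimum count 10, minimum total 15), scaled by TMM and fitted with edgeR's quasi-likelihood test, with treatment as the only term and Benjamini-Hochberg adjustment over all genes. The paper names edgeR without naming the test. Standard errors are the absolute log2 fold change over the square root of F, and intervals use the t distribution. Ratios of counts used a pseudocount of 0.5.

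Gene models came from GENCODE M21 and promoters from RefSeq, where 6 of the 10 genes had an entry. Strit1 was matched through a RefSeq synonym. The 10 genes and all lists were chosen with earlier results of these data known. Named by rule are the 10 genes, every other listed gene past the thresholds and the 5 other listed genes with the smallest unadjusted p. The 3 genes nearest in pattern to the gene with the largest fold change are also named by rule. Marker genes and genes that overlap a named gene are named outside this rule. So are the genes named by role or under the other observations, which were chosen after their values were seen. A result of 1 other listed gene is not reported here. Replicates differed by more than sampling noise (chi-square per degree of freedom 5.37 to 14.0). The floor of 3 counts covers counting error only. Scripts were tested on simulated data (R 4.3.3, edgeR 4.0.16, limma 3.58.1, DESeq2 1.42.0).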

Additional observations from a re-analysis of the deposited data

How the results depend on the processing

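No setting brought any of the 10 genes past the thresholds. The settings were edgeR's exact and likelihood ratio tests, DESeq2, limma-voom, scaling by library size alone or by DESeq2-type size factors, testing without a filter or with 10 counts required of each sample, the replicate block, no fold change threshold, leaving out the 10 genes with the highest counts (which include Atp2a2 and Pln) and leaving out each replicate in turn. Of the other pathway genes 1 passed with no filter (0 in the main fit, the one described above). This was Atp2b2, at a log2 fold change of −0.64 (edgeR adjusted p = 0.040), and 0 passed under the other settings. With no filter 240 of all 22407 tested genes passed, against 14 of 13092 in the main fit. The log2 fold changes that changed sign were those of Casq2 and Asph when replicates were left out, from −0.11 to 0.019 for Casq2 (positive without caffeine replicate 1) and from −0.095 to 0.0083 for Asph (positive without vehicle replicate 1, or without caffeine replicate 3, 0.0046). With library size only, the median log2 fold change of the 9 genes was −0.17 and that of all genes −0.084. The number of the 9 with an unadjusted p below 0.05 was 0 in the main fit, 3 without vehicle replicate 3 and 1 without caffeine replicate 3. It was 4 with no filter and 5 with library size only. Of the other pathway genes it was 2 in the main fit and 1 to 10 across the settings. The lowest came with the exact and likelihood ratio tests and without caffeine replicate 3, and the highest with no filter. It was 4 by DESeq2 and by limma-voom and 6 with the replicate block. The share of all genes at that p was taken only in the main fit (8.82%). The counts of the other settings therefore have no background beside them and are not read as results about these genes. Among all genes, 14 passed in the main fit. The paper listed more genes at the same thresholds, without naming its edgeR test. Of all genes 94 passed with the exact test, 101 with the likelihood ratio test and 67 with DESeq2. With library size only 27 passed, with no filter 240, and without 1 replicate 4 to 28. With the replicate block 40 passed, none of them a calcium handling gene listed here, and the log2 fold change of Ryr2 was −0.24. Hearts with the same number deviated with a correlation over genes of 0.045, −0.030 and −0.038, and not every heart correlated best with its own number, so the numbers were not read as pairs. Within-heart ratios kept their sign under a pseudocount of 5, the replicate block and each replicate left out.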

Other observations

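Casq1, the calsequestrin of fast skeletal muscle, varied widely between hearts of the same group, and is named here after its values were seen. It had 546, 132 and 93 counts in vehicle replicates 1 to 3 and 299, 78 and 338 counts in caffeine replicates 1 to 3, or 53.3, 12.5 and 9.42 CPM and 41.9, 8.80 and 39.6 CPM. Each group held hearts at both levels, and the standard error of the log2 fold change of 0.25 was 0.62, the largest among the 43 other pathway genes tested. Of the 8 skeletal muscle markers, Myh1 and Myh4 were at 0 in all 6 hearts and the rest at 0 to 8 counts. Among the rest, Tnni2 had 6, 5 and 7 counts in vehicle and 0, 3 and 1 in caffeine. Pvalb had 0, 4 and 8 counts in vehicle and 0, 2 and 0 in caffeine. The part of skeletal muscle in the values of Casq1 was not tested. Gm17224, the antisense gene that overlaps Casq1, was at 0 CPM in each heart. Atp2a1, the skeletal muscle pump, had 3, 3 and 7 counts in vehicle and 0, 2 and 0 in caffeine. Mrln, which encodes the skeletal muscle pump inhibitor myoregulin, had 25 counts in vehicle replicate 2 and 3 or 4 in each of the other 5 hearts.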
